A study of Mus musculus with 7 samples.

Results

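*Foxf1a*, *Foxf2*, *Foxc1*, *Foxc2* and *Foxl1* encode forkhead transcription factors of embryonic mesoderm. They were examined in the posterior second heart field (pSHF) of *Shh* mutant mouse embryos. The members were taken by gene name: every non-control probe carrying 1 of these 5 names on the array was used, out of 21475 gene names in all. For 4 of the 5 genes the rule found 1 probe each, well above background in all 7 arrays, and *Foxl1* was not analysed here.

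All 7 arrays were of 1 colour (Cy3), and each measured RNA from a separate pool of pSHF tissue. Shh-/- tissue gave 4 pools (numbered 1 to 4) and Shh+/+ tissue gave 3 (numbered 1, 3 and 4), all from embryonic day 9.5 on a mixed C56B/6 and CD-1 background. Shh+/- females that had been superovulated were crossed with Shh+/- males, and embryos were pooled by genotype. The number of embryos in a pool is not given in the sources used here, so the p-values below measure the spread between pools. The null allele removes *Shh* from the whole embryo and for all of development. The dissection took the dorsal mesenchymal protrusion and nearby ventral lateral plate mesenchyme with the foregut attached, and left out the heart and the neural tube. A slide held the mutant and the wild-type pool of the same number for numbers 1, 3 and 4. The mutant array came first on each of these slides, so the effect of array position cannot be told apart from that of genotype. Mutant pool 2 sat alone on its slide, and its label warns of a possible leak during hybridization.

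Forkhead factors bind DNA through a winged helix domain. Hedgehog ligand made by the foregut endoderm acts on the neighbouring splanchnic mesoderm, where Foxf genes are known as Hedgehog-responsive genes of gut and lung mesenchyme. Foxc genes are best known from paraxial mesoderm, pharyngeal arch mesoderm, neural crest mesenchyme and endothelium, and *Foxl1* from gut mesenchyme next to the epithelium. In the mouse *Foxf2* lies beside *Foxc1* and *Foxq1* on one chromosome, and *Foxf1a* (now named *Foxf1*) beside *Foxc2* and *Foxl1* on another.

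The probe sequences were compared with those of the other probes on the array. Whole transcripts were not searched, so binding of other transcripts was not tested. All 4 probes were 60 bases long and lay on the plus strand of the mm9 build: *Foxf2* at chr13:31723139-31723198, *Foxc1* at chr13:31901257-31901316, *Foxf1a* at chr8:123610681-123610740 and *Foxc2* at chr8:123642693-123642752. On chromosome 13 the *Foxf2* and *Foxc1* probes were 178 kb apart, and on chromosome 8 the *Foxf1a* and *Foxc2* probes were 32.0 kb apart. The files place the start of the probes at base 2266 (*Foxf2*), 2742 (*Foxc1*), 963 (*Foxf1a*) and 2622 (*Foxc2*) of their transcripts, without saying which part is coding. The *Foxf1a* probe held no stop codon in any of the 3 forward frames, while each of the others held a stop in 1 frame. The whole *Foxf1a* probe and 30 bases of each of the others are shown 5′ to 3′, with capitals for the longest run shared with the probe of any other gene on the array.
Foxf2 probe, bases 27 to 56: tcgcttgtATTGTAAAAGGAGggtatattt
Foxc1 probe, bases 17 to 46: cagaaagTGTTCCAAAAGCTTTtcaagtta
Foxf1a probe, bases 1 to 60: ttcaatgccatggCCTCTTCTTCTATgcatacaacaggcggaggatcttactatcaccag
Foxc2 probe, bases 2 to 31: acaccaaaAGACTTTAAAATTTcaatctca
The longest shared run was 13 bases for *Foxf2* and *Foxf1a*, 14 for *Foxc2* and 15 for *Foxc1*. Between the 4 members themselves no shared run was longer than 7 bases, so the paralogs were read by unlike probes.

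RefSeq promoter sequence in the GRCm38.p6 build was at hand for 2 of the 5 members, the chromosome 13 pair. These 250 bases before each start are shown because *Foxf2* and *Foxc1* gave unequal values between genotypes (below). They are printed on the plus strand, 5′ to 3′, with capitals for GC boxes (GGGCGG) and CCAAT boxes on either strand.
Foxf2 promoter, chr13:31625566-31625815: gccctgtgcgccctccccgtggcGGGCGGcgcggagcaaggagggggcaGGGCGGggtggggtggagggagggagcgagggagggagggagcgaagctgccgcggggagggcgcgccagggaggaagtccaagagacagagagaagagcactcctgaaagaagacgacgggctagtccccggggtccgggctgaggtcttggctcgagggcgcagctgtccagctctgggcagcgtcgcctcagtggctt
Foxc1 promoter, chr13:31806396-31806645: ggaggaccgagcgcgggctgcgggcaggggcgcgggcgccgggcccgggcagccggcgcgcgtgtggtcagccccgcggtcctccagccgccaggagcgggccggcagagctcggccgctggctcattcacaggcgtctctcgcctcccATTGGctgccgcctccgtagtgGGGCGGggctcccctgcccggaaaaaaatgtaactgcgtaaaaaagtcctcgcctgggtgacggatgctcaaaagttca
Both stretches were rich in G and C, at 71.6% for *Foxf2* and 70.8% for *Foxc1*. The *Foxf2* stretch held 21 CG dinucleotides and the *Foxc1* stretch 29, against a median of 6 over 32851 mouse promoter windows of that length. The GC box occurred 2 times before *Foxf2* and 1 time before *Foxc1*, and 32.7% of all windows held it. A CCAAT box stood before *Foxc1* alone of the pair, as in 33.8% of all windows. The site of the GLI factors, the transcriptional arm of Hedgehog signaling, was searched as GACCACCCA on both strands. It was in neither stretch and in 0.225% of all windows. A T-box site (AGGTGTGA) and a forkhead site (TGTTTAC) were also in neither, and in 1.12% and 3.17% of all windows. The absence of these letters says nothing about sites elsewhere at the loci.

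The targeted gene was read first. *Shh* gave normalized log2 signals of 9.67, 9.39, 9.22 and 9.32 in mutant pools 1 to 4 and of 10.72, 10.74 and 9.98 in wild-type pools 1, 3 and 4. The genotypes did not overlap, and the fitted difference was −1.08 on the log2 scale with a limma adjusted p of 0.0652. Whether its probe lies in the deleted part of the gene is not given in the sources used here, so a remaining signal checks nothing by itself. Of the 18 genes of a Hedgehog pathway list, *Shh* among them and all tested, 1 fell and 0 rose at an adjusted p under 0.05. An unadjusted p under 0.05 was reached by 8, in both directions. Among all probes tested 0.558% were called, 7.96% had an unadjusted p under 0.05 and 44.6% were lower in the mutants. These shares are the background for every list below. The gene that fell was *Hhip*, the Hedgehog-binding antagonist and a target of the pathway, at a log2 difference of −2.83 (SE 0.18, adjusted p = 0.00126). The receptor and target *Ptch1* had a difference of −1.17 (adjusted p = 0.143) and the effector and target *Gli1* of −1.02 (adjusted p = 0.0673). Another 13 genes ran from −0.12 to 0.49: *Boc*, *Stk36*, *Kif7*, *Smo*, *Sufu*, *Spop*, *Gli2*, *Disp1*, *Gli3*, *Cdon*, *Gas1*, *Ihh* and *Dhh*. Of these, *Gas1* (0.40), *Ihh* (0.45) and *Dhh* (0.49) were higher, with unadjusted limma p of 0.0126, 0.0147 and 0.0174. The list's median was −0.01, beside 0.02 over all probes tested, and it takes in differences of both signs.

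Among the 4 members, *Foxf2* fell in the mutants to 18.6% of its wild-type level, *Foxf1a* and *Foxc1* were lower without passing the test over all probes, and *Foxc2* gave overlapping genotypes. Thus 1 of 4 members was called, beside 129 of 23117 probes tested (0.558%) in either direction and 68 (0.294%) lower in the mutants. With slide as a block only 11 probes were called in all, and *Foxf2* was among them with an adjusted p of 0.00771. For *Foxf2*, *Foxf1a* and *Foxc1*, 3 of 4 members, the highest mutant value was under the lowest wild-type value, against 3.56% of probes tested, or 8.34% with either direction counted. The same 3 members were lower in all 3 same-slide pairs, against 11.5% of probes, and had an unadjusted p under 0.05, against 7.96%. Only *Foxf2* was lower by 2-fold or more, as were 0.48% of probes. In pooled tissue, fewer cells of a type and less RNA per cell cannot be told apart.

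*Foxf2*, which acts in mesenchyme of the gut, palate and brain vessels, gave normalized log2 signals of 9.95, 9.80, 9.63 and 9.88 in mutant pools 1 to 4. Wild-type pools 1, 3 and 4 gave 12.66, 11.95 and 12.12. All 4 mutant pools were low and close to each other, and the genotypes stood 1.99 apart on the log2 scale at their nearest pools. The fitted difference was −2.43 (SE 0.18, 95% interval −2.83 to −2.03), a 5.38-fold lower signal. The adjusted p was 0.00216 by limma, and the exact two-sided permutation p over 35 splits of the pools was 0.0286, the smallest that 4 against 3 pools allow. Same-slide differences were −2.71, −2.32 and −2.25, each far larger than the SD of 0.14 between mutant pools or 0.37 between wild-type pools. By p, *Foxf2* had rank 3 among the 23117 probes tested. The scanner's mean signal, before any correction, ran from 776 to 1200 intensity units in the mutant pools and from 4272 to 5164 in the wild-type pools, so both genotypes were far above the median local background of 21 to 25 units. The gene kept its call without any 1 of the 7 pools (adjusted p from 0.00335 to 0.0146) and lost it on the authors' own normalized values, where 0 probes were called.

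*Foxf1a*, required in lateral plate and splanchnic mesoderm, had the dimmest probe of the 4. It gave normalized log2 signals of 7.02, 6.75, 6.81 and 7.32 in mutant pools 1 to 4 and of 7.60, 7.72 and 7.99 in wild-type pools 1, 3 and 4. No mutant pool reached the lowest wild-type pool, although the gap was only 0.28. The difference was −0.80 (SE 0.17, 95% interval −1.17 to −0.42), a level of 57.6% of wild type. It did not pass the test over all probes, with an adjusted p of 0.0926 by limma, and the exact two-sided permutation p was 0.0571. Same-slide differences were −0.58, −0.91 and −0.67. The scanner's mean signals, from 134 to 303 intensity units, were the nearest of the members to the local background of 21 to 25 units. Quantile normalization gave −0.63, the same without background correction gave −0.69, and scaling of the processed signal to the 75th percentile gave −0.83. With array weights the value was almost the same (−0.80) and passed the test (adjusted p = 0.0166).

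*Foxc1*, a factor of paraxial and arch mesoderm and of mesenchyme around the eye and brain, gave normalized log2 signals of 11.70, 11.41, 11.58 and 11.89 in mutant pools 1 to 4. Wild-type pools 1, 3 and 4 gave 12.64, 12.07 and 12.32. The mutant pools were again all below the wild-type pools, with 0.18 between the nearest. The difference was −0.70 (SE 0.17, 95% interval −1.08 to −0.32), a level of 61.5% of wild type. The adjusted p was 0.141 by limma, and the exact two-sided permutation p of the single probe was 0.0286. Slide 1 showed the widest gap, at −0.94, and slides 3 and 4 gave −0.49 and −0.43. Array weights lowered the difference to −0.53, and no alternative or left-out pool brought its adjusted p under 0.05.

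*Foxc2*, which acts in paraxial mesoderm, the aortic arches and lymphatic vessels, gave normalized log2 signals of 11.87, 11.50, 11.84 and 11.91 in mutant pools 1 to 4 and of 12.18, 11.73 and 11.65 in wild-type pools 1, 3 and 4. The genotypes overlapped, and 3 of the 4 mutant pools lay above 2 of the wild-type pools. The difference was −0.07 (SE 0.16, 95% interval −0.45 to 0.30), with an adjusted p of 1.00 by limma and an exact two-sided permutation p of 0.714. Slide 1 gave −0.32, and slides 3 and 4 gave 0.12 and 0.26. The sign of the mean rested on single pools: without wild-type pool 1 it was 0.091, and without mutant pool 2, which was low, 0.019.

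**Figure D1:**
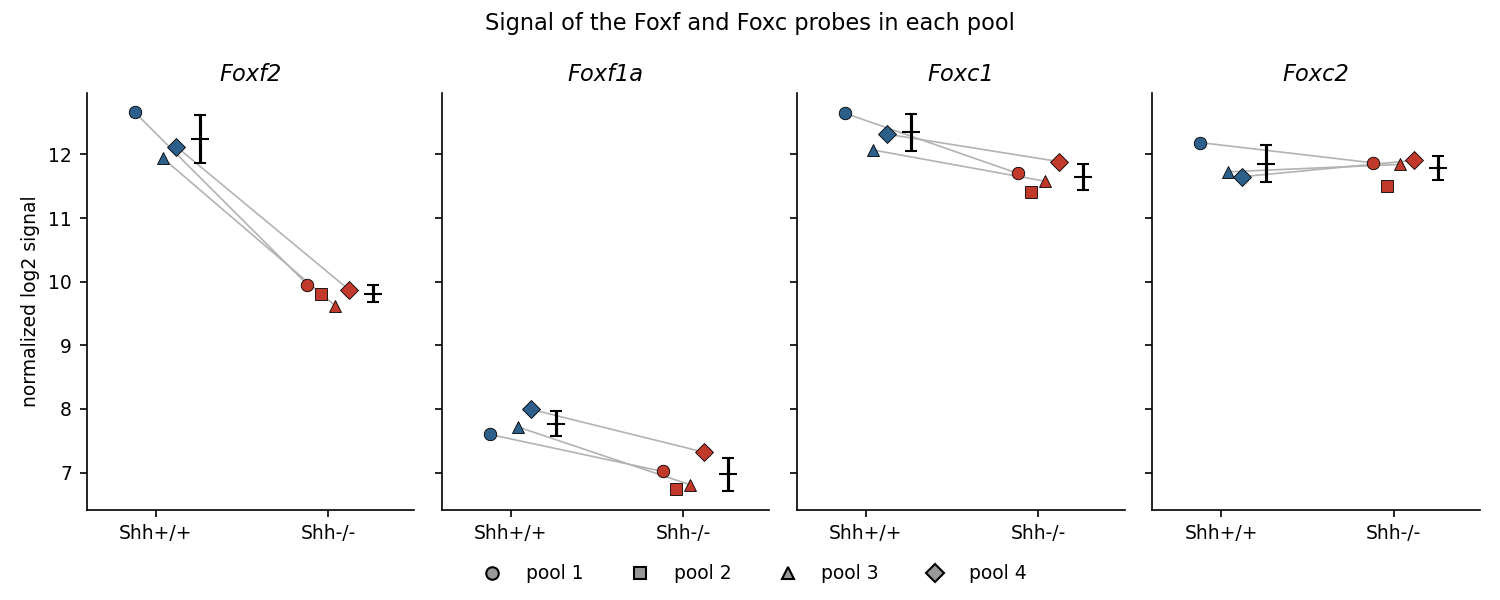
Normalized log2 signal of the *Foxf2*, *Foxf1a*, *Foxc1* and *Foxc2* probes in each pool (blue Shh+/+, red Shh-/-, marker shape by pool number, grey lines joining pools on a slide, black bars mean and SD). The red points of *Foxf2* lie between 9.63 and 9.95, under blue points from 11.95 to 12.66, while those of *Foxc2* overlap the blue points.

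**Figure D2:**
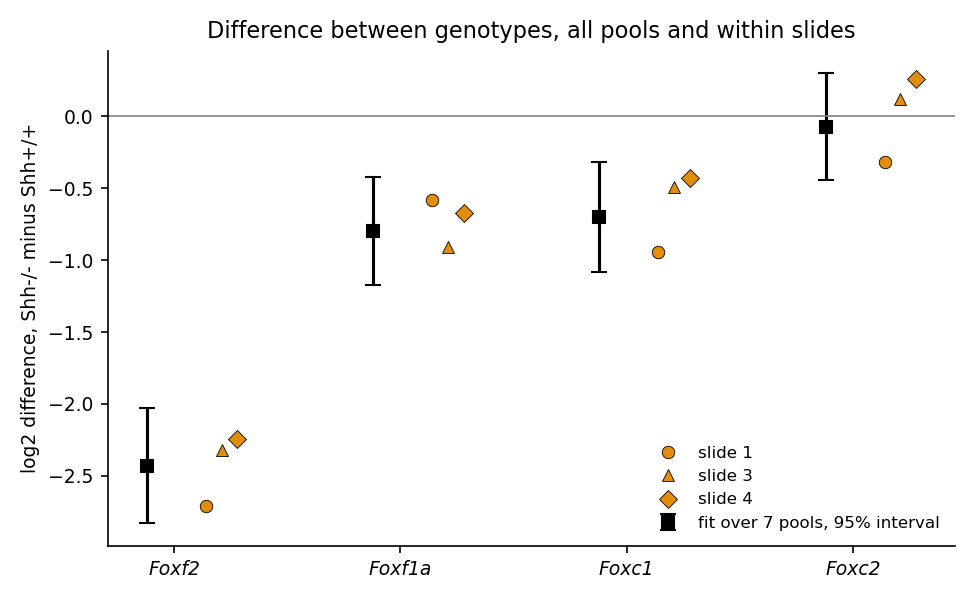
Log2 difference between genotypes for each member, from the fit over 7 pools with its 95% interval (black squares) and within the slides that held both genotypes (orange markers). The intervals of *Foxf2*, *Foxf1a* and *Foxc1* lie below 0 and that of *Foxc2* spans it.

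The 2 genes of a linked or paralogous pair were then compared directly. Within each array the log2 signal of one gene was set against that of the other. Since the genes have different probes, only the change of this difference between genotypes was read. Of 4 pairs compared, 3 moved without overlap of the genotypes, each with an exact two-sided permutation p of 0.0286 (0.0381 adjusted over the 4 pairs).

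*Foxf2* minus *Foxc1*, the chromosome 13 pair, was −1.75, −1.61, −1.95 and −2.01 in mutant pools 1 to 4 and 0.01, −0.12 and −0.20 in wild-type pools 1, 3 and 4. The mutant pools were all far below the wild-type pools. The change was −1.73, so *Foxf2* was lowered 3.31-fold more than *Foxc1* beside it. It was nearly alike within the slides, at −1.76, −1.83 and −1.81.

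*Foxf1a* minus *Foxc2*, the chromosome 8 pair, was −4.85, −4.75, −5.03 and −4.58 in mutant pools 1 to 4 and −4.59, −4.01 and −3.66 in wild-type pools 1, 3 and 4. Wild-type pool 1 reached into the range of the mutant pools, so the genotypes overlapped. The change of −0.72 had an exact two-sided permutation p of 0.0571 (0.0571 adjusted over the 4 pairs), and it was −0.26, −1.03 and −0.93 within the slides. Unequal change of this pair was therefore not shown at this number of pools, nor was equal change.

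The paralogs differed too. *Foxf2* minus *Foxf1a* changed by −1.63, from 4.13 to 5.06 in the wild-type pools down to 2.55 to 3.05 in the mutant pools. On the slides the change was −2.13, −1.41 and −1.58. The *Foxf1a* probe was dim, with mean signals of 134 to 303 intensity units against 776 to 5164 for *Foxf2*. The part of probe brightness in this change was not tested. *Foxc1* minus *Foxc2* changed by −0.63, from 0.34 to 0.67 in the wild-type pools down to −0.27 to −0.02 in the mutant pools, and was even within the slides at −0.62, −0.61 and −0.69. The *Foxc* pair thus separated the genotypes more evenly than *Foxc1* alone, whose same-slide differences ran from −0.94 to −0.43.

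**Figure D3:**
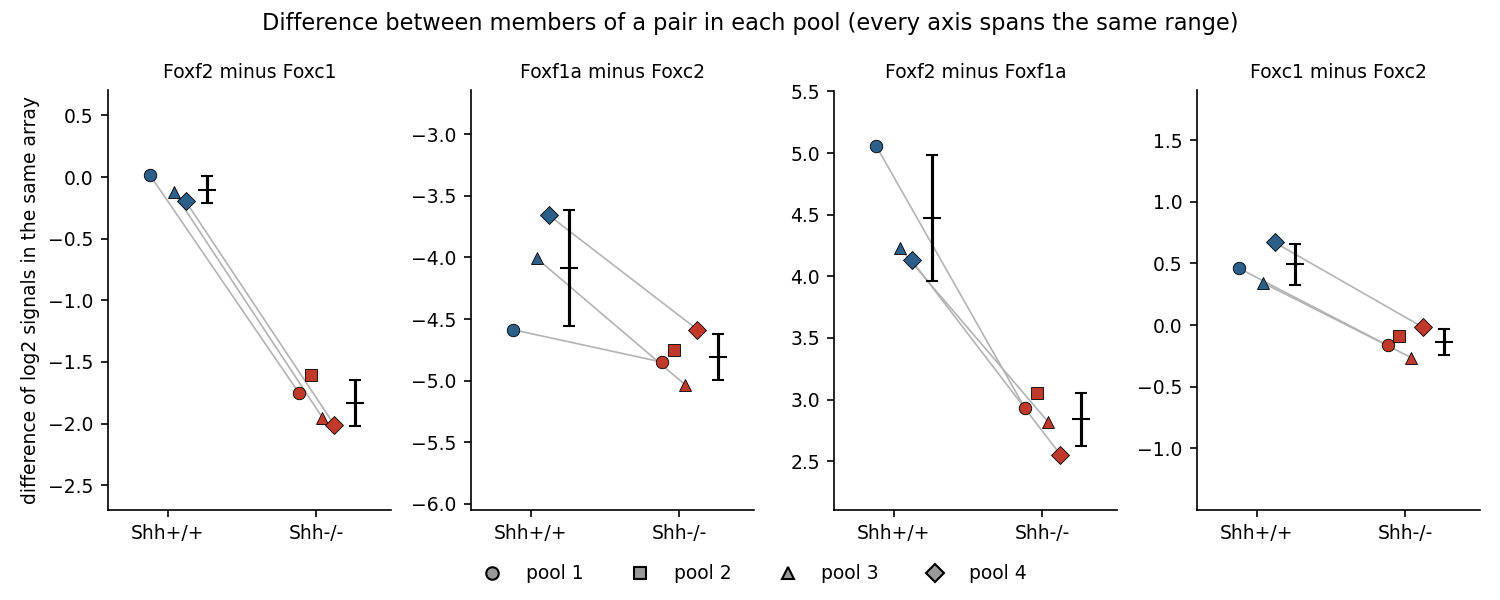
Difference of log2 signals between the genes of each pair within an array, by pool (blue Shh+/+, red Shh-/-, marker shape by pool number, grey lines joining pools on a slide, black bars mean and SD). The level differs by probe and is not read. The genotypes separate in every panel but that of *Foxf1a* minus *Foxc2*.

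The other genes around the members were read next. Within 1000000 bases of a member probe 30 other named genes had a probe, and 22 of them were tested. Of these 0 were called by limma in either direction and 4 had an unadjusted p under 0.05 (7.96% over all probes tested). Lower values were found for 9 (44.6% over all probes tested), with a median difference of 0.01. Around *Foxf2* and *Foxc1* the 5 tested neighbours ran from −0.57 to 0.13 (median −0.12). Around *Foxf1a* and *Foxc2* the 17 tested ran from −0.31 to 0.37 (median 0.02). The 5 on chromosome 13 were too few to show whether that region moved. The lowest of the 22, at −0.57, was far from the −2.43 of *Foxf2* but near the −0.80 of *Foxf1a* and the −0.70 of *Foxc1*.

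*Foxq1*, a forkhead gene whose probe was 71.2 kb before that of *Foxf2*, had a difference of 0.06 with a wide 95% interval (−0.66 to 0.78). On the far side of *Foxc1*, *4930548F15Rik* had a difference of −0.57 (adjusted p = 0.279) and was well above background in 1 of 4 mutant pools and 3 of 3 wild-type pools. *Gmds*, the next gene, had −0.12. On chromosome 8 *Mthfsd*, whose probe lay between those of *Foxf1a* and *Foxc2*, had a difference of 0.00 (95% interval −0.32 to 0.32). *Irf8*, before *Foxf1a*, had −0.06 and *1110003O08Rik*, after *Foxc2*, had 0.00. The 95% intervals of all 3 spanned 0. One further gene had its probe at −51.3 kb from that of *Foxf2*. This gene, *1700018A04Rik*, was well above background in 2 of 3 wild-type pools and 0 of 4 mutant pools and so was not tested. With no filter on dim probes it was called, at −1.31 (adjusted p = 0.0381); its name was chosen after its value was seen.

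**Figure D4:**
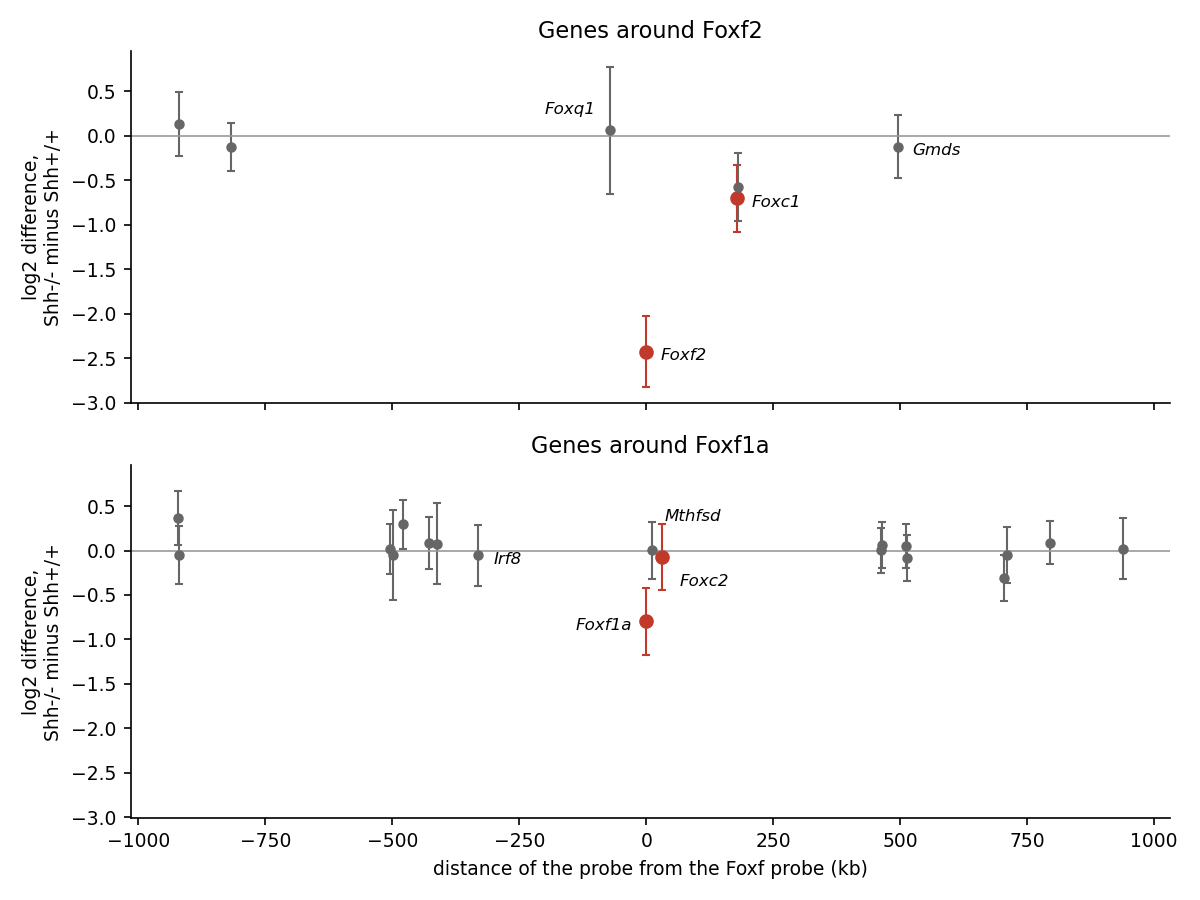
Log2 difference between genotypes, with 95% intervals, for each tested gene against the distance of its probe from the *Foxf2* probe (top) or the *Foxf1a* probe (bottom), in kb. Members are red. *Foxf2* stands at −2.43, while the grey neighbours run from −0.57 to 0.37.

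Set among the forkhead family, *Foxf2* had the lowest difference of all the forkhead genes tested. Besides the members, 36 forkhead genes had a probe and 29 were tested. Of the 29, 2 fell and 0 rose, 20 had a difference below 0 and the median was −0.08, beside 0.02 over all probes. Some passed the filter on dim probes only through the wild-type pools: *Foxi2*, *Foxo3*, *Foxo4*, *Foxe3*, *Foxl2* and *Foxb2*. All of these but *Foxb2* (0.10) had a difference below 0, so the count of lower genes rests partly on that filter. An unadjusted limma p under 0.05 was reached by 8 of the 29, in both directions. Among all probes tested 0.294% were called lower, 0.264% were called higher, 44.6% had a difference below 0 and 7.96% had an unadjusted p under 0.05. One of those that fell was *Foxi2*, an ectodermal factor, at −1.47 (limma adjusted p = 0.0344). It was well above background in only 2 of 4 mutant pools and kept its call under 6 of 19 alternatives. *Foxa3*, an endodermal factor, had a difference of 0.76 (adjusted p = 0.10). Without mutant pool 2 the count of other forkhead genes called was 1.

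Genes tied to the members by textbook knowledge showed no calls. Of 14 tested genes linked to Foxf factors (vessel and gut mesenchyme genes), 3 were lower, 0 were called by limma and 2 had an unadjusted p under 0.05. The median was 0.11. The largest differences there were those of *Wnt5a*, a mesenchymal Wnt ligand, at −0.74 (adjusted p = 0.0726), and *Vcam1*, an adhesion molecule, at 0.43 (adjusted p = 0.431). *Bmp4*, a mesenchymal ligand placed downstream of Foxf factors, had a difference of 0.02. Of 14 tested genes linked to Foxc factors, 8 were lower, 0 were called and 8 had an unadjusted p under 0.05, in both directions, with a median of −0.02. The largest differences were those of the ligand *Fgf8*, at −1.61 (adjusted p = 0.0894), and the Notch ligand *Dll4*, at −0.85 (adjusted p = 0.439). Of 8 tested genes linked to *Foxl1*, 1 was lower (*Wnt5a* again), 0 were called and 1 had an unadjusted p under 0.05. The median was 0.09, and the second largest difference was that of *Bmp2*, at 0.43. These lists were written with earlier results of the data known.

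Marker lists of the heart field and of other tissues were read next. The 14 second heart field markers were all well above background in all 7 pools. Their presence does not check the tissue label, since the authors place *Tbx5* in the heart as well and cardiac muscle RNA was present (below). *Isl1* gave mean log2 signals of 11.85 in mutants and 12.27 in wild type, and *Tbx5* of 12.55 and 12.86. Of the 14, 8 were lower, 0 were called and 4 had an unadjusted p under 0.05. Among all probes tested 44.6% were lower, 0.558% were called and 7.96% had an unadjusted p under 0.05. The median was −0.07, with the largest differences in *Osr1* (−0.88, adjusted p = 0.232) and *Tbx1* (−0.78, adjusted p = 0.309).

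Paraxial mesoderm expresses Foxc genes as well. Of 10 tested sclerotome and paraxial mesoderm markers, 2 fell: *Pax1* (−3.01, adjusted p = 0.0424) and *Pax9* (−2.55, adjusted p = 0.0356). *Pax9* was well above background in 1 of 4 mutant pools and *Uncx* (−0.20) in 3 of 4. Both *Pax1* and *Pax9* are also expressed in pharyngeal endoderm. Of the 10, 6 were lower, 6 had an unadjusted p under 0.05 in one direction or the other, and the median was −0.32. The summed level ran from 9996 to 14211 in mutant pools and from 11068 to 15724 in wild-type pools, but it adds unlike probes and came mostly from those of *Tcf15*, *Tbx18*, *Scx* and *Twist1*, so it says little about the genes that fell. Of 12 tested neural crest and arch markers 2 fell, *Dlx1* (−1.55, adjusted p = 0.00821) and *Dlx2* (−1.27, adjusted p = 0.0185). Of the 12, 9 were lower, 7 had an unadjusted p under 0.05 and the median was −0.47. That list's summed level was 35537 to 51281 in mutants and 39198 to 48869 in wild type, most of it from the *Prrx2* probe (−0.04). The part of these tissues in the lower values of *Foxc1* and *Foxf2* was not tested.

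Neural tube was left out of the dissection. Of its 10 tested markers 10 were lower, 1 fell (*Zic1*, −1.92, adjusted p = 0.0438), 4 had an unadjusted p under 0.05 and the median was −0.41, while *Sox1* and *Nkx2-2* failed the filter on dim probes. *Neurog1* and *Neurog2* were each well above background in 3 of 4 mutant pools and passed that filter only through the wild-type pools. The count of lower markers therefore rests partly on the filter. The summed level, 3587 to 5221 in mutant pools and 6593 to 7515 in wild-type pools, came mostly from the probe of *Nkx6-1* (−0.85, adjusted p = 0.0677) and so mainly reads that gene. Its part in the lower values of the members was not tested. Liver bud markers went the other way: 11 of 11 were higher and 4 rose (*Fga* at 1.45, *Alb* at 1.22, *Ttr* at 0.91 and *Fgb* at 0.82). The median was 0.84, and 10 of the 11 had an unadjusted p under 0.05. Their summed level was 153290 to 204624 in mutants and 138433 to 150514 in wild type, most of it from the *Afp* probe (0.17). The calls of *Pax1*, *Pax9*, *Zic1* and the 4 liver bud genes were all lost with slide as a block, and also without mutant pool 2, wild-type pool 1 or wild-type pool 3. The block and the removal of mutant pool 2 are not separate checks, since that pool sat alone on its slide. *Dlx2* lost its call with slide as a block and without wild-type pool 1, mutant pool 3 or wild-type pool 3, and *Dlx1* lost it on the authors' values, centred or not, among 19 alternatives.

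Of 11 tested foregut endoderm markers 9 were lower, 0 were called and 3 had an unadjusted p under 0.05; *Nkx2-1*, at −0.88 (adjusted p = 0.0517), and *Sox2*, at −0.40, had the largest differences. Of 12 endothelial markers 3 were lower, 0 were called and 1 had an unadjusted p under 0.05, led by *Nfatc1* at 0.47 and *Tie1* at 0.36. Red cell markers were lower in 12 of 12, with 0 called and 3 at an unadjusted p under 0.05, and *Slc4a1* had a difference of −0.65. Cardiomyocyte markers were lower in 0 of 12, with 0 called and 0 at an unadjusted p under 0.05, led by *Myl2* at 1.24 and *Tnni1* at 0.37. The heart was left out of the dissection, yet *Myl7* gave a mean log2 signal of 17.10 in mutants and 17.09 in wild type. The part of endothelium, blood and cardiac muscle in the members' values was not tested.

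The probes most like each member over the 7 arrays were found by Pearson's r. Since both genotypes enter, r takes in the difference between them, and it is a description of 7 points. *Foxf2* was most like *Tmem158*, *Saa1* and *Saa2* (r from 0.993 to 0.995), which differed by −0.64 (adjusted p = 0.0349), −1.49 (adjusted p = 0.00821) and −1.39 (adjusted p = 0.0122). All 3 fell, but all 3 lost their calls with slide as a block. *Tmem158* was also lost without any 1 of the 7 pools, *Saa1* without mutant pool 2 or 3 or wild-type pool 1, 3 or 4, and *Saa2* without mutant pool 3. *Saa1* and *Saa2* are close paralogs, so their signals may not be separate. *Foxf1a* was most like the zinc finger genes *Zfp84*, *Zbtb12* and *Zfp64* (r = 0.992 for *Zfp84*), which differed by −0.30 to −0.40 and were not called. Other probes of *Zfp84* gave differences of 0.00 and 0.04, and of *Zfp64* 0.02 and −0.63. Their r with *Foxf1a* was not read, so each likeness is that of the matched probe alone. *Foxc1* was most like *Meox1*, a paraxial mesoderm factor (r = 0.988, difference −1.10, adjusted p = 0.105), followed by *Adamts20* and *Fam176a*. *Foxc2* was most like *Golph3l*, *Lrtm2* and *Frmd4a* (r = 0.978 for *Lrtm2*), whose differences lay between −0.09 and −0.02.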

How the data were processed

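RNA of 4 Shh-/- and 3 Shh+/+ pools was measured on 1-colour Agilent arrays of 43379 non-control spots and 41174 probes. The deposited scanner files hold signals as intensity per spot, made by the authors with Agilent Feature Extraction 10.5.1.1 (submitters' processing notes), and their probe positions use the mm9 build. The authors' normalized table, on the log2 scale, holds 26255 probes. Its array medians run from 5.50 to 9.93, each column tracks the log2 scanner signal (r from 0.991 to 0.996 over probes), and its centring is unstated, so it served as an alternative. Groups came from titles, since the strain and genotype labels are exchanged in content.

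Background was removed from the mean signals with normexp, fitted on 153 negative control spots (offset 50), outlier spots were left out, and arrays were normalized by VSN (own implementation, since the authors' package was not at hand; trimming share 0.9, 7 iterations, 5 strata), giving log2 values whose array medians lay within 0.0957 of each other over the probes tested. A probe was tested if it was named and stood well above background in each pool of at least 1 genotype: 23117 probes of 14891 genes. Between 59.8% and 70.6% of probes per array were well above background and 0 spots were saturated. Precision is set by the number of arrays: over the probes tested, pools of the same genotype had a median SD of 0.189. Tests used limma 3.58.1 in R 4.3.3 (with data.table, version 1.17.8), p-values adjusted by Benjamini-Hochberg across the probes tested and a threshold of 0.05, in place of the authors' SAM, which could not be run here. Single values used exact two-sided permutation tests over 35 splits. The scripts were tested on simulated data. Figures used matplotlib 3.10.9 in Python 3.11.15.

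The members, lists and tests were chosen with earlier results of these data known. For a gene with several probes the brightest gave the value. Named were the members, *Shh*, the Hedgehog list, other forkhead genes that were called or among the 3 largest differences, the tested neighbours next to each cluster, in each list the called genes or the 2 largest differences, and the 3 probes most like each member. Some genes that this rule names are not reported here. *Bmp4*, *Isl1*, *Tbx5*, *Myl7* and the genes that make up most of a summed level were added after their values were seen.

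Pool number marks a shared slide in the labels. Deviations from the genotype means correlated at 0.192, 0.238 and 0.0328 between pools of a slide, and from −0.22 to 0.187 (mean −0.049) in 9 pairs from different slides. Slide entered 2 alternatives, once fixed and once random (consensus correlation 0.101). With slide fixed, mutant pool 2 adds nothing to the genotype difference, being alone on its slide. The members' differences are then those without that pool. The others were array weights, a variance trend, the 75th percentile scaling, quantile normalization with background correction and without it, all named probes without a filter, a filter on the interquartile range, keeping outlier spots, the authors' values, leaving out each pool and, chosen after seeing the data, the authors' values centred on array medians. *Foxl1* and its pair with *Foxf1a* were not analysed here. No genome was used, so exon positions were not assigned.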

Additional observations from a re-analysis of the deposited data

Results flagged for a closer look

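*Foxc2* in the mutant pools was the only result past the limit for a sample standing apart, among the 9 tried (*Shh*, the 4 members and the 4 pair differences). Mutant pool 2 gave a normalized log2 signal of 11.50, against 11.84 to 11.91 in the other 3, so that its gap to the nearest pool was 0.845 of the range of the 4, just past the limit for a group of this size. Chance flags about 1 in 20 groups. This pool is the one with the label of a possible leak, and without it the difference of *Foxc2* between genotypes was 0.019 in place of −0.07. The 3 wild-type pools are too few for this rule.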

How the results depend on the processing

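*Foxf2* kept its direction and its call under 17 of 19 alternatives (differences from −3.09 to −2.22), including each left-out pool (−2.58 to −2.22). It lost the call on the authors' values (−3.09, adjusted p = 0.934) and on those centred on array medians (−2.48, adjusted p = 0.0845), where 0 probes were called at all. *Foxf1a* kept its sign throughout (left-out pools −0.91 to −0.68) and was called with array weights (−0.80). *Foxc1* kept its sign and was never called (left-out pools −0.84 to −0.55). *Shh* was called under 5 of 19 alternatives. *Foxc2* changed sign with slide as a replicate block (0.019), with array weights (0.027), without wild-type pool 1 (0.091) and without mutant pool 2 (0.019). The first and last are the same estimate, because mutant pool 2 sat alone on its slide and the block takes it out of the difference. The left-out pools of *Foxc2* spanned −0.18 to 0.09. The pair differences kept their sign and side under every alternative that has a test; in left-out pools, where no test reaches 0.05, they were values only.

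The count of 129 called probes fell to 57 with the 75th percentile scaling, 33 with no filter on dim probes, 11 with the replicate block and 0 on the authors' values, centred or not, and rose to 446 with array weights. Without 1 pool it ran from 12 to 136: 12 without mutant pool 3, 14 without wild-type pool 1, 30 without wild-type pool 3, 35 without wild-type pool 4, 37 without mutant pool 2, 73 without mutant pool 4. Hedgehog list calls (1) became 3 with the interquartile range filter and with slide as a random block, 5 with array weights, 2 with the variance trend and 0 on the authors' values, and ran from 1 to 2 without 1 pool (2 without wild-type pool 4). Calls of other forkhead genes (2) became 1 with the percentile scaling, both quantile settings, no filter and the replicate block, 0 on the authors' values, and 0 to 2 without 1 pool (0 without mutant pool 3 or wild-type pool 4, 1 without mutant pool 2 or 4 or wild-type pool 1 or 3). Neighbour calls (0) became 1 with no filter and stayed 0 without any 1 pool. The replicate block changed the sign of *Foxc2* and no call of a member. The cause of these moves was not tested. *Foxf1a* was read by 1 dim probe, and the 7 arrays limit the precision of every value.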
